A study of Mus musculus with 12 samples.

Results

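The 8 genes described here, Nos2, Il4ra, Tgfb1, Cd274, Il10, Cd84, Slc27a2 and Entpd1, are effectors and markers linked to the suppressive function of myeloid cells. They were taken by symbol from the 23420 genes of the deposited count table, and all 8 were found there. Enough counts for the comparison of ages across all genes were available for 5 of the 8, among 9742 genes tested. Nos2, Il10 and Slc27a2 fell below that filter and are given by their counts. Total RNA was sequenced from bone marrow M-MDSCs (monocytic myeloid-derived suppressor cells, immature monocyte-like cells) of 6 aged mice, 24 months old, and 6 young mice, 6 months old, with 1 library per mouse. All mice were male C57BL/6JNIA animals, the marrow came from the tibia, cells were sorted as CD11b+Ly6G-Ly6Chi, and no allele or agent is named for either age. Age is the single factor that the sample titles vary between the groups, but the numbers of the alignment files follow age as well. Whether these genes differ between the ages can be asked within that limit.

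MDSCs are myeloid cells that restrain T cells. The inducible nitric oxide synthase consumes arginine, an amino acid that T cells need, and signalling through the IL-4 receptor alpha chain is known to shift myeloid cells towards an alternatively activated state. Secreted TGF-beta and IL-10, the checkpoint ligand PD-L1 (Cd274) and the ectonucleotidase CD39 (Entpd1) act on neighbouring cells, whereas CD84 is used chiefly as a marker of suppressor cells. Slc27a2 encodes the fatty acid transporter FATP2, which is also linked to suppressor cells.

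The young libraries held 4613239 to 9079237 counted fragments and the aged libraries 8737941 to 16300374. The numbers of the alignment files ran lower in all young than in all aged mice, so a change of preparation between those numbers cannot be told apart from age. Of all genes tested, 45.4% differed between the ages at an adjusted p under 0.05, with 2185 higher and 2240 lower in aged mice (1682 and 2762 when libraries were scaled by their totals alone). Against the label, genes of neutrophil granules were among the most abundant, such as Ngp at 39630 ± 3370 CPM in aged and 30944 ± 4421 CPM in young mice (CPM, counts scaled by the normalized library size to a common total, given as mean ± SD with n = 6 per age throughout). The monocyte receptor gene Csf1r stood at 141 ± 37.0 and 134 ± 15.9 CPM. Markers of other cells moved with age, and their part in the results below was not tested. The 10 neutrophil markers summed to 89329 to 106682 CPM in aged and 69639 to 95016 CPM in young mice. These sums differed (exact permutation test over mice, two-sided, adjusted p = 0.0238 over 11 marker lists). Of the 10, 4 were called higher in aged mice and 0 lower, against 22.4% and 23.0% of all genes tested. The 13 markers of resident macrophages summed to 56.0 to 998 CPM in aged and 47.9 to 68.2 CPM in young mice (exact permutation test, adjusted p = 0.0238). The sum of 998 CPM belonged to aged replicate 1. Of the 13, 10 had enough counts for the test of single genes, and 8 of these were called higher and 0 lower. The call of the neutrophil list was lost as a mean log2 CPM (exact test, adjusted p = 0.0571) and without any 1 of 4 mice, and that of the macrophage list without any 1 young mouse. In bulk RNA, fewer cells of a type and less RNA per cell cannot be told apart.

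Of the 5 tested members, Il4ra alone was called higher in aged mice, none was called lower, and 4 did not pass the test. At this threshold 22.4% of all genes tested were called higher and 23.0% lower. The median log2 fold change was 0.13 over the 5 members and 0.01 over all genes tested. No member had values that separated the ages completely, whereas 21.8% of all genes tested did.

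**Figure D1:**
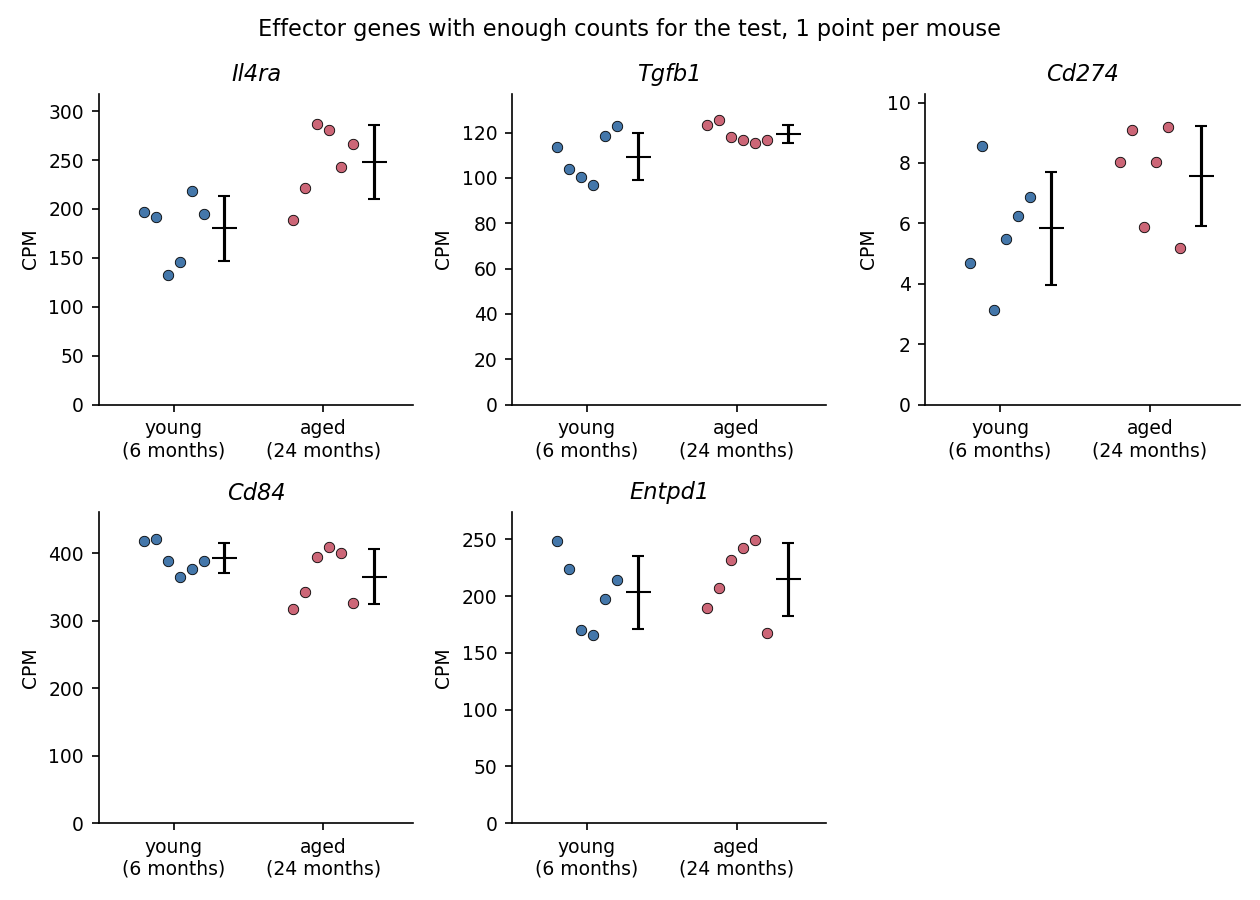
CPM of the 5 members tested, with 1 point for each mouse and the mean and SD beside the points, in young mice (blue) and aged mice (red). Il4ra lies at 133 to 218 CPM in young and 189 to 287 CPM in aged mice, and the ages overlap in all 5 panels.

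Levels of the members were compared with each other per gene length, as FPKM (CPM per kilobase of the gene's exons). In young mice the order was Cd84 (62.9 ± 3.61 FPKM), Tgfb1 (52.2 ± 5.01), Entpd1 (48.5 ± 7.66) and Il4ra (35.4 ± 6.54). Each of these overlapped its neighbour in the order over the 6 mice. Cd274 followed at 1.604 ± 0.512 FPKM, apart from Il4ra in every mouse, and Slc27a2 at 0.191 ± 0.160 FPKM, apart from Cd274 in every young mouse. In aged mice the order of these 4 abundant members was the same, at 58.5 ± 6.55, 57.0 ± 1.99, 51.2 ± 7.69 and 48.7 ± 7.43 FPKM. Among the genes tested, Il4ra stood at percentile 82.7 of the FPKM levels in young and 86.8 in aged mice, and Cd274 at 15.7 and 20.5.

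**Figure D2:**
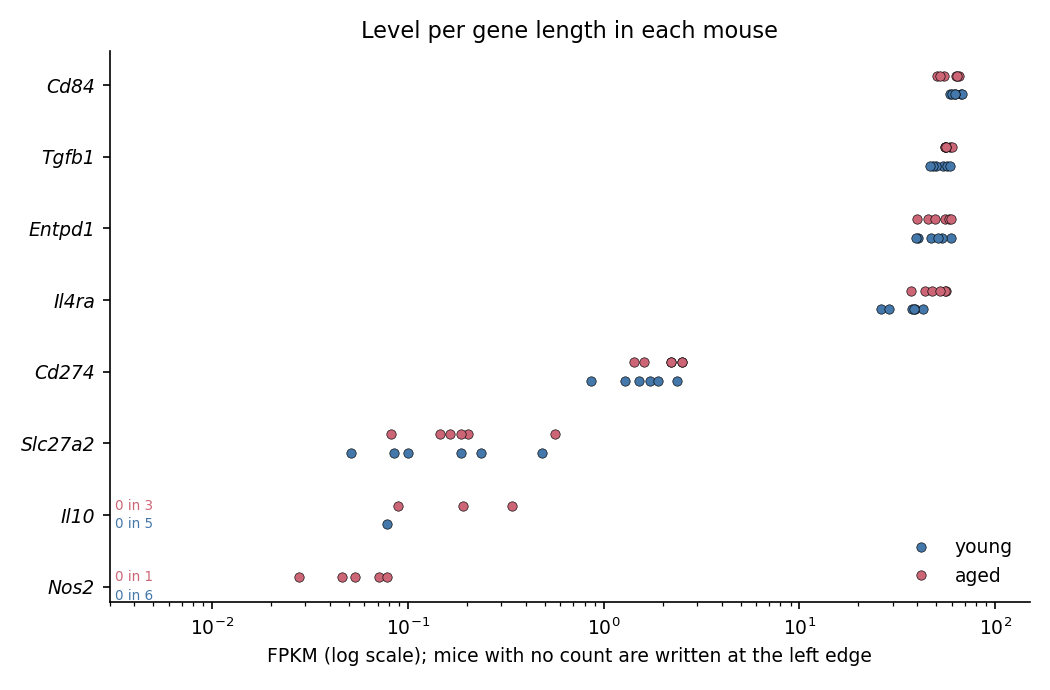
FPKM of all 8 members on a log scale, with 1 point for each mouse, young in blue and aged in red. Mice without a count are written at the left edge, as for Nos2 in all 6 young mice. The 4 abundant members lie between 26.1 and 67.5 FPKM.

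Il4ra encodes the IL-4 receptor alpha chain, the subunit that binds IL-4 and is shared by the receptors of IL-4 and IL-13. The gene lies on mm10 chr7:125552282-125579474, plus strand, and its 11 exons span 5094 bases. It pairs with the product of Il13ra1, a gene of the X chromosome, to form the type II receptor for both cytokines. The RefSeq windows of 300 bases at the start sites of this pair (GRCm38.p6, 250 bases before to 50 after the start) are shown because both genes were higher in aged mice. Capitals mark the GC box GGGCGG on either strand and the octamer-like run ATGNAAAT on either strand, and matches of the GC box may overlap each other.
Il4ra, chr7:125552021-125552320, plus strand: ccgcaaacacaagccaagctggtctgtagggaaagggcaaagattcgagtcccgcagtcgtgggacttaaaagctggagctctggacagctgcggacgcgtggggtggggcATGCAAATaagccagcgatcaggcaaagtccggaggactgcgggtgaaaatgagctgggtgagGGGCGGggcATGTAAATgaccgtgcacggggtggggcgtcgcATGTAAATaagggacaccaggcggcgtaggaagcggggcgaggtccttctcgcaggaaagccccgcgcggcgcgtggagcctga
Il13ra1, chrX:36111858-36112157, plus strand: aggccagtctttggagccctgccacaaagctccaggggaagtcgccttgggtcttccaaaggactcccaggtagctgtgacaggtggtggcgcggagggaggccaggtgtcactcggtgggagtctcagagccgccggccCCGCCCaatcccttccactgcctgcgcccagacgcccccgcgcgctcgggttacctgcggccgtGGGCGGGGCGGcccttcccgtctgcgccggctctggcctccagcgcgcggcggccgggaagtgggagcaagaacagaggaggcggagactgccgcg
The GC box was found 1 time in the Il4ra window and 3 times in the Il13ra1 window, and 35.7% of all 32851 RefSeq windows hold it. The octamer-like run, searched for after the sequence was read, was found 3 times in the Il4ra window and not in the Il13ra1 window. It is held by 5.67% of all windows and found 3 or more times in 0.0457%. Since the run was picked from this window, these shares cannot show that the window is unusual. Neither window held the letters of a STAT6 site, TTC and GAA parted by 4 bases (6.95% of windows), TTCNNNGAA (8.30%), GAGGAA (28.3%) or TGANTCA (7.81%), on either strand. Windows were found for 6 of the 8 members, not for Nos2 and Il10, and these matches are letters only, not tests of binding.

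Il4ra RNA was higher in aged than in young mice BM M-MDSCs. The 6 aged mice ranged from 189 CPM over a median of 255 to 287 CPM, and the 6 young mice from 133 over a median of 194 to 218 CPM. The lowest aged mouse, replicate 1, fell within the young range, and replicates 2, 4, 5, 6 and 7 lay above every young mouse. The means were 248 ± 37.8 and 180 ± 33.3 CPM, a 1.38-fold difference (95% interval 1.14 to 1.66; log2 fold change 0.46, SE 0.13, edgeR adjusted p = 0.00874). Leaving out each mouse in turn gave log2 fold changes from 0.39 to 0.53 with adjusted p from 0.00343 to 0.0215, and without aged replicate 1, the mouse with the highest macrophage marker sum, it was 0.53. Against the young mice, the aged replicates 1, 2 and 4, with file numbers before a gap in the numbering, gave 0.37 (edgeR adjusted p = 0.0960), and replicates 5, 6 and 7, after it, gave 0.56 (edgeR adjusted p = 0.0132). That split of the mice was chosen after the data were seen.

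Among 13 tested genes of IL-4 receptor signalling other than Il4ra, 3 were called higher in aged mice and 3 lower, against 22.4% and 23.0% of all genes tested, and 7 did not pass. Il13ra1 rose from 37.6 ± 13.03 CPM in young (18.01 to 48.8) to 124 ± 44.4 CPM in aged mice (72.5 to 193), so the ages did not overlap. Its 3.33-fold difference (log2 fold change 1.73, SE 0.26, edgeR adjusted p = 0.000194) kept its call whichever of the 12 mice was left out. Of the kinase genes of the receptor, Jak3 rose 1.99-fold (38.7 ± 13.9 against 19.3 ± 3.35 CPM, edgeR adjusted p = 0.00113), whereas Jak2 was called lower at -0.31 on the log2 scale (85.5 ± 6.69 against 106 ± 5.76 CPM, edgeR adjusted p = 0.00186). Tyk2 was called lower at -0.36 (41.1 ± 3.28 against 52.6 ± 10.3 CPM, edgeR adjusted p = 0.0171). Jak1 was at 516 ± 28.9 and 591 ± 32.01 CPM, also called lower (edgeR adjusted p = 0.0180). With a correction for gene length none of these 3 was called, with log2 fold changes of -0.11 for Jak2, -0.17 for Tyk2 and 0.02 for Jak1, and Tyk2 was called in neither group of aged mice split at the gap in file numbers. Stat6, the transcription factor that the receptor activates, did not pass (336 ± 32.4 against 331 ± 12.3 CPM, edgeR adjusted p = 0.807), nor did Il2rg, the common gamma chain of the type I receptor (24.0 ± 5.06 against 20.4 ± 3.69 CPM, adjusted p = 0.223). Of genes that IL-4 is known to induce in macrophages, Mrc1, the mannose receptor, was called higher at a log2 fold change of 2.51 (5.64 to 134 CPM in aged, 5.27 to 7.69 CPM in young mice, edgeR adjusted p = 0.00595). Without aged replicate 1 it was 1.46 (edgeR adjusted p = 0.00806), and limma-voom over all mice did not call it (1.61, adjusted p = 0.0860). Chi3l3, a chitinase-like protein, did not pass at 4362 ± 545 and 4288 ± 349 CPM (edgeR adjusted p = 0.848). The ligand genes were near or at 0 counts, with 2 counts of Il4 and 0 of Il13 over all 12 mice.

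**Figure D3:**
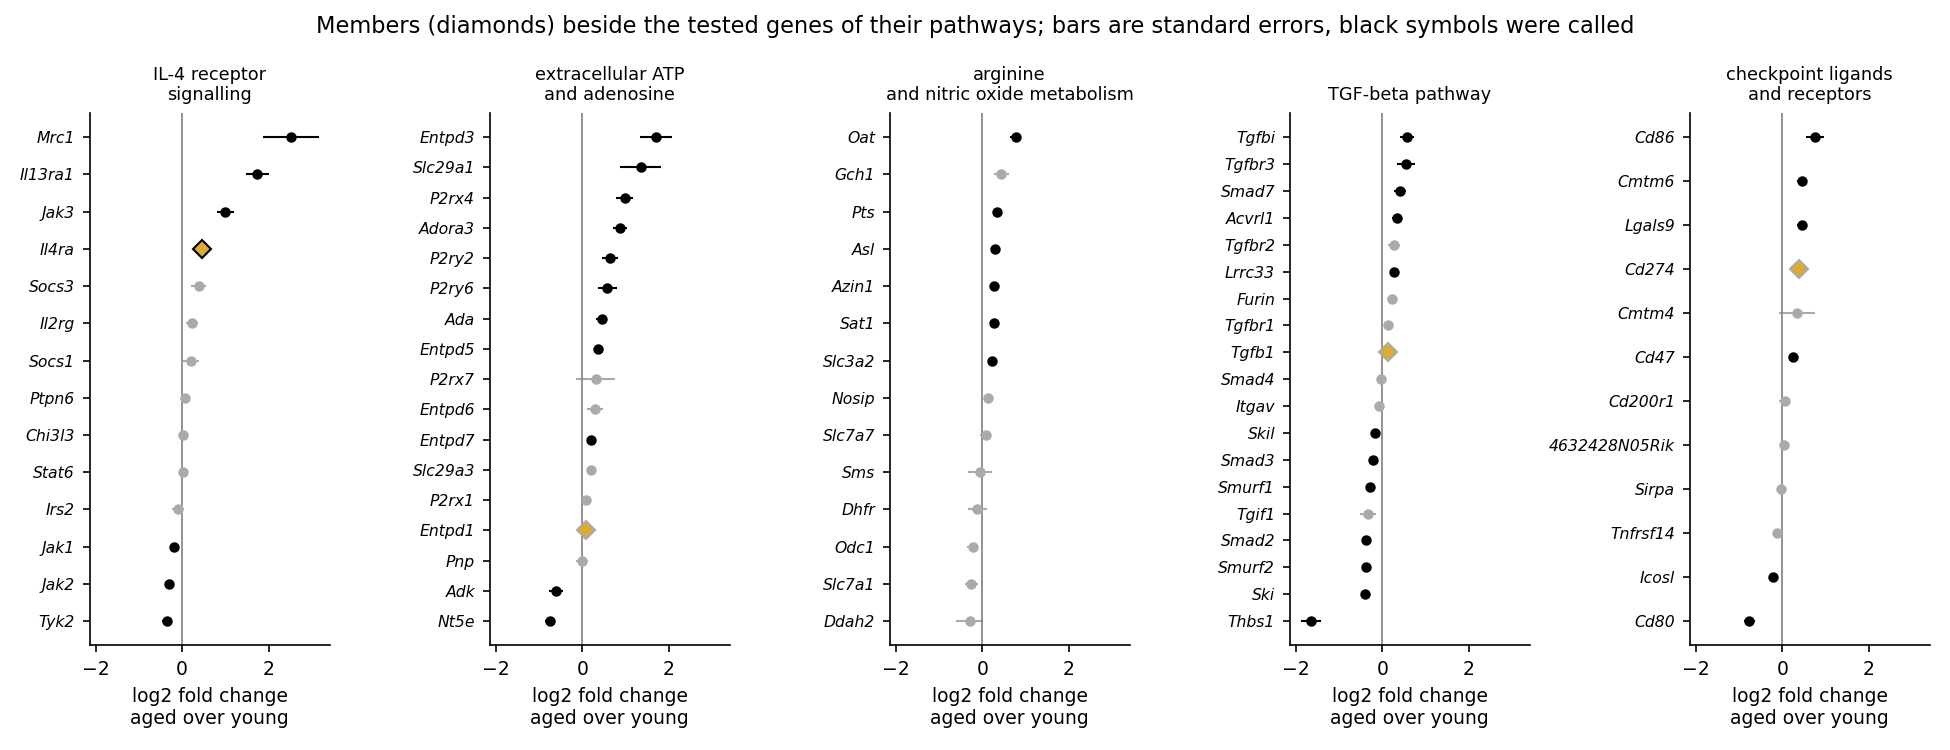
Log2 fold changes, aged over young, of the tested genes of 5 pathway lists, with bars for the standard error. Members are diamonds, and black symbols or outlines mark an adjusted p under 0.05, as for Il4ra at 0.46 and Il13ra1 at 1.73.

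Nos2, the inducible nitric oxide synthase (chr11:78920859-78960124, plus strand, 27 exons), had counts in aged mice alone. The aged replicates 1, 2, 4, 5, 6 and 7 had 1, 0, 2, 2, 3 and 5 counts, and the 6 young mice had 0. The sum of 13 counts in aged mice was 3.10 times the floor of 3 counts over the young group, per normalized library, and the counting interval of the ratio of the sums, 13 against 0, began at 2.18 and had no upper end. Aged replicate 7, with the most counts, was the deepest library. When no filter on low counts was used, edgeR called Nos2 higher (adjusted p = 0.0153 over 15827 genes, of which 28.2% were called and 14.6% called higher). Without a filter it was also called whichever mouse was left out, in 12 fits (edgeR adjusted p from 0.00988 to 0.0305). Fits that left out a young mouse set the same aged counts against 0 again, so they add little. DESeq2 gave it no adjusted p. Once every library was thinned to 4613239 fragments, 3 counts in 3 aged mice and 0 in young mice were left. The level was at most 0.313 CPM in any mouse, and a count of 0 allows up to 3 counts, 0.188 to 0.643 CPM depending on the library, which covers counting error only.

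**Figure D4:**
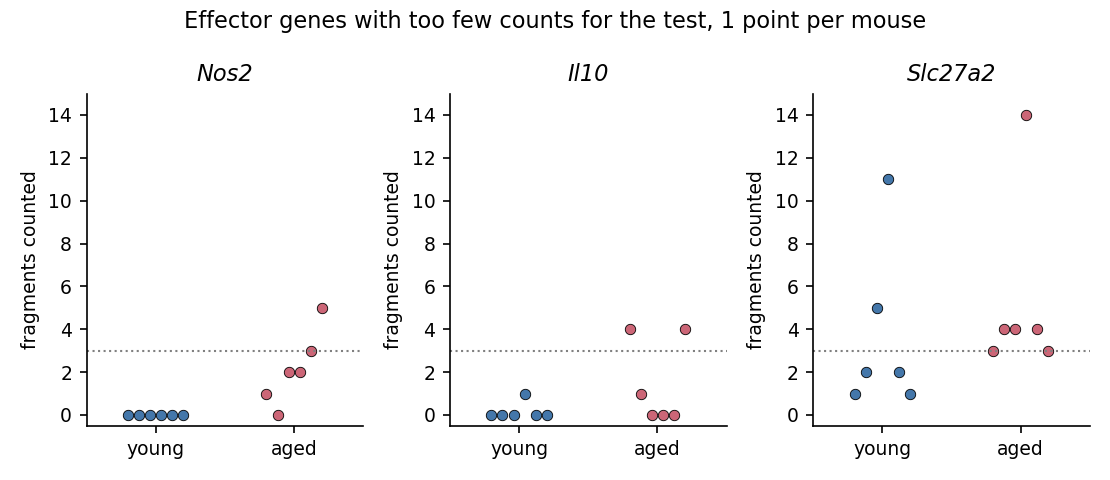
Fragments counted per mouse for the 3 members below the filter, young in blue and aged in red, with a dotted line at 3 counts. Nos2 has 13 counts in 5 of 6 aged mice and 0 in young mice.

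Genes of arginine and nitric oxide metabolism other than Nos2 were higher in aged mice in 6 of 14 cases tested and lower in none, against 22.4% and 23.0% of all genes tested, and 8 did not pass. Oat, the ornithine aminotransferase, rose 1.71-fold (25.2 ± 4.07 against 14.8 ± 2.27 CPM; log2 fold change 0.77, SE 0.13, edgeR adjusted p = 0.000313), with no overlap of the ages. Azin1, an inhibitor of the antizymes that degrade ornithine decarboxylase, rose 1.21-fold (303 ± 26.1 against 250.4 ± 24.4 CPM, edgeR adjusted p = 0.00979). Asl, which makes arginine from argininosuccinate, rose 1.23-fold (20.6 ± 1.18 against 16.8 ± 2.20 CPM, edgeR adjusted p = 0.0181). The call of Asl was lost in 6 of 14 fits with another tool, scaling, filter or subset of mice, and that of Azin1 in 2. Ornithine decarboxylase itself, Odc1, did not pass (9.14 ± 1.25 against 10.6 ± 1.58 CPM, adjusted p = 0.163), nor did the arginine transporter Slc7a1 (13.96 ± 2.47 against 16.5 ± 3.18 CPM, adjusted p = 0.161). Ass1, the enzyme before Asl, had 0 counts in all 12 mice. Over the other fits the count of higher genes in this list was 2 to 7.

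Tgfb1 encodes the cytokine TGF-beta 1, which suppresses T cells and is secreted in a latent form. The gene (chr7:25687002-25704996, plus strand, 7 exons) had aged values from 116 over a median of 117 to 126 CPM and young values from 96.8 over a median of 109 to 123 CPM. Aged mice lay within the upper part of the young range or just above it. The means of 119 ± 4.17 and 109 ± 10.5 CPM did not pass the test (log2 fold change 0.13, 95% interval -0.02 to 0.27, edgeR adjusted p = 0.137). Between mice of an age the coefficient of variation was 3.49% in aged and 9.598% in young mice, a difference that was not tested.

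In the TGF-beta pathway, 5 of 18 other tested genes were higher in aged mice and 7 lower, against 22.4% and 23.0% of all genes tested, and 6 did not pass. The largest change was that of Thbs1, thrombospondin 1, which activates latent TGF-beta. It fell from 1021 ± 227 CPM in young (690.5 to 1346) to 326 ± 122 CPM in aged mice (133 to 465), 3.14-fold lower (log2 fold change -1.65, SE 0.24, edgeR adjusted p = 0.000136). Tgfbi, a matrix protein gene induced by TGF-beta, rose 1.48-fold (558 ± 119 against 376 ± 76.9 CPM, edgeR adjusted p = 0.00818). Negative regulators of the pathway were called in both directions. Ski and Smurf2 fell (94.8 ± 7.10 against 125 ± 7.36 CPM and 64.3 ± 5.33 against 84.0 ± 4.23 CPM, edgeR adjusted p = 0.000323 and 0.000466), and Smurf1 and Skil were also called lower (log2 fold changes -0.28 and -0.18, edgeR adjusted p = 0.0310 and 0.0391), in 6 and 2 of the 12 fits that left out 1 mouse, with Skil at 0.18 after a correction for gene length. Smad7, an inhibitory Smad, was called higher (42.4 ± 6.24 against 32.3 ± 7.23 CPM, edgeR adjusted p = 0.0284), in 8 of the 12 fits that left out 1 mouse. The signal mediators Smad2 and Smad3 were called lower (74.5 ± 6.497 against 96.7 ± 5.34 CPM and 90.6 ± 6.70 against 105.6 ± 6.76 CPM, edgeR adjusted p = 0.000658 and 0.0131), but after the length correction they stood at 0.10 and -0.016 and were not called. Of the receptor genes, Acvrl1, a type I receptor of the family, was called higher (295 ± 55.6 against 235 ± 10.8 CPM, edgeR adjusted p = 0.0206, called in 9 of 14 fits with another tool, scaling, filter or subset of mice), as was the co-receptor Tgfbr3 (5.89 ± 1.51 against 3.999 ± 1.07 CPM, edgeR adjusted p = 0.0394), in 5 of the 12 fits that left out 1 mouse. The 2 chains of the TGF-beta receptor itself did not pass, with Tgfbr1 at 126 ± 8.61 and 114 ± 12.2 CPM and Tgfbr2 at 115 ± 15.1 and 95.5 ± 22.1 CPM (edgeR adjusted p = 0.139 and 0.119). Across the other fits, 1 to 9 genes of the list were higher and 3 to 7 lower.

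Il10, the anti-inflammatory cytokine (chr1:131019845-131024970, plus strand, 5 exons), was at few counts. Aged replicates 1, 2 and 7 had 4, 1 and 4 counts and the others 0, and young replicate 6 had 1 count. The sums of 9 and 1 counts gave a ratio of 6.43 per normalized library, with a counting interval from 0.891 to 282. No difference was detectable at this depth (edgeR without a filter, log2 fold change 2.10, adjusted p = 0.177). Leaving out aged replicate 1 lowered it to 1.51, and leaving out young replicate 6 left no young count to compare with, where the fitted value, 3.46, depends on the prior count. Of 13 tested genes of the IL-10 pathway and other suppressive mediators, 2 were higher in aged mice and 3 lower, against 22.4% and 23.0% of all genes tested, and 8 did not pass. Ptgs2, the cyclooxygenase that starts prostaglandin E2 synthesis, fell from 61.1 ± 18.1 CPM in young to 20.2 ± 9.08 CPM in aged mice, 3.08-fold lower with no overlap (log2 fold change -1.62, SE 0.26, edgeR adjusted p = 0.000283). Il10ra, the ligand-binding chain of the IL-10 receptor, fell by 0.50 on the log2 scale (19.5 ± 4.96 against 27.4 ± 3.51 CPM, edgeR adjusted p = 0.0136), and was not called in libraries thinned to the smallest total (edgeR adjusted p = 0.0699) or with the aged mice before the gap (0.0934). Vegfa, a growth factor gene and the other one called lower, was called in 4 of the 12 fits that left out 1 mouse and in 5 of 14 others. Hmox1, heme oxygenase 1, rose 2.003-fold (80.1 ± 30.2 against 40.0 ± 5.84 CPM, edgeR adjusted p = 0.000827). Mif, a cytokine gene, rose 2.59-fold at a low level (3.55 ± 1.55 against 1.40 ± 0.657 CPM, edgeR adjusted p = 0.00582).

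Cd274 encodes PD-L1, the ligand of the checkpoint receptor PD-1 on T cells. The gene (chr19:29367438-29388094, plus strand, 7 exons) had 24 to 97 counts per mouse, which limits the precision of its values. Aged mice ranged from 5.20 over a median of 8.03 to 9.18 CPM and young mice from 3.15 over a median of 5.87 to 8.57 CPM. Aged replicates 2 and 6 lay above every young mouse, and the others overlapped the young range. The means of 7.57 ± 1.66 and 5.84 ± 1.86 CPM did not pass the test (log2 fold change 0.39, SE 0.21, 95% interval -0.07 to 0.84, edgeR adjusted p = 0.151). Among the 8 mice whose replicate numbers occur in both ages, Cd274 was called higher at a log2 fold change of 0.68 (edgeR adjusted p = 0.0465). It was called in 0 of the 12 fits that left out 1 mouse (edgeR adjusted p from 0.0660 to 0.316). Of 14 other fits it was called in 2, both on those 8 mice.

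Among 11 other tested checkpoint ligands and receptors, 4 were higher in aged mice and 2 lower, against 22.4% and 23.0% of all genes tested, and 5 did not pass. Both B7 ligands of CD28 and CTLA-4 changed, in opposite directions. Cd80 fell from 15.98 ± 2.13 to 9.46 ± 1.31 CPM, 1.69-fold lower with no overlap (log2 fold change -0.76, SE 0.12, edgeR adjusted p = 0.000237), and Cd86 rose from 6.37 ± 1.61 to 10.9 ± 3.18 CPM, 1.68-fold higher (edgeR adjusted p = 0.00688). Cmtm6, which keeps PD-L1 at the cell surface, rose 1.38-fold (873 ± 148 against 635 ± 91.4 CPM, edgeR adjusted p = 0.00615). Lgals9, a galectin that binds TIM-3, rose 1.36-fold with no overlap of the ages (156 ± 18.2 against 114 ± 15.8 CPM, edgeR adjusted p = 0.00216). PD-L2 (Pdcd1lg2) and PD-1 (Pdcd1) were below the filter, with 32 and 10 counts over all 12 mice.

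Cd84, a self-binding receptor of the SLAM family (chr1:171839697-171890718, plus strand, 9 exons of 6253 bases), had the most counts of the members, 1969 to 5220 per mouse. Aged mice ranged from 317 over a median of 369 to 409 CPM and young mice from 365 over a median of 389 to 422 CPM. Aged replicates 1, 2 and 7 lay below every young mouse, and replicates 4, 5 and 6 lay within the young range. The means of 366 ± 41.0 and 393 ± 22.6 CPM did not pass the test (log2 fold change -0.11, SE 0.08, 95% interval -0.27 to 0.06, edgeR adjusted p = 0.276). Its sign and call changed with the scaling: with library totals alone it was called lower (-0.19, edgeR adjusted p = 0.0234), and with a correction for gene length its log2 fold change was 0.19 (edgeR adjusted p = 0.0970). Of 5 other tested genes of the SLAM family and its adaptors, 2 were called higher, Ly9 and Cd244, against 22.4% of all genes tested, and 3 did not pass. Ly9 was at 5.64 ± 3.78 and 2.70 ± 0.864 CPM (log2 fold change 0.999, edgeR adjusted p = 0.0357), and the call was lost without aged replicate 1 (0.59, edgeR adjusted p = 0.0946) or 2 or without young replicate 1, 2, 5 or 9, and held in 6 of 13 other fits. Cd244 was at 17.8 ± 6.78 and 11.7 ± 3.10 CPM (edgeR adjusted p = 0.0464), and was called in 3 of the 12 fits that left out 1 mouse.

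Entpd1 encodes CD39, which turns extracellular ATP and ADP into AMP, the substrate from which CD73 (Nt5e) makes the suppressive nucleoside adenosine. The gene (chr19:40659794-40741602, plus strand, 10 exons) did not pass the test of ages. Aged mice ranged from 168 over a median of 220 to 250 CPM and young mice from 166 over a median of 206 to 249 CPM, nearly the same span. The means were 215 ± 32.3 and 203 ± 32.1 CPM (log2 fold change 0.08, SE 0.12, 95% interval -0.17 to 0.33, edgeR adjusted p = 0.591), and with library totals alone the log2 fold change was -0.0044.

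Of 16 other tested genes of extracellular ATP and adenosine, 9 were higher in aged mice, 2 lower and 5 did not pass, against 22.4% higher and 23.0% lower among all genes. Nt5e fell from 90.0 ± 7.498 CPM in young (81.3 to 101) to 53.3 ± 9.14 CPM in aged mice (35.2 to 61.0), 1.69-fold lower with no overlap (log2 fold change -0.76, SE 0.11, edgeR adjusted p = 0.000134). Entpd3, another ectonucleotidase, rose from 2.58 ± 1.01 to 8.49 ± 4.74 CPM, 3.27-fold higher (log2 fold change 1.71, SE 0.36, edgeR adjusted p = 0.00181). Ada, which removes adenosine by deamination, rose 1.37-fold (37.8 ± 6.497 against 27.7 ± 4.48 CPM, edgeR adjusted p = 0.00983), and Adk, which removes it by phosphorylation, fell by 0.61 on the log2 scale (11.9 ± 3.33 against 18.1 ± 1.22 CPM, edgeR adjusted p = 0.00556). The adenosine receptor gene Adora3 rose 1.83-fold with no overlap (5.85 ± 0.726 against 3.17 ± 0.644 CPM, edgeR adjusted p = 0.000640), and the ATP-gated channel P2rx4 rose 1.97-fold (13.1 ± 4.98 against 6.54 ± 1.076 CPM, edgeR adjusted p = 0.00147). Nt5e, Entpd3, Ada, Adk, Adora3 and P2rx4 kept their calls whichever of the 12 mice was left out, and the count of higher genes was 4 to 9 over the other fits. The call of Ada was lost with a correction for gene length and with a replicate block.

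Slc27a2, the fatty acid transporter FATP2 (chr2:126553024-126588243, plus strand, 10 exons), was low in both ages. Aged replicates 1, 2, 4, 5, 6 and 7 had 3, 4, 4, 14, 4 and 3 counts, and young replicates 1, 2, 5, 6, 9 and 10 had 1, 2, 5, 11, 2 and 1. A single mouse of each age, aged replicate 5 and young replicate 6, stood well above the rest. The sums of 32 and 22 counts gave a ratio of 1.04 per normalized library (counting interval 0.586 to 1.88), so no difference was detectable at this depth (edgeR without a filter, adjusted p = 0.868). The log2 fold change of that fit was 0.14, with -0.39 without aged replicate 5 and 0.73 without young replicate 6. Slc27a4, another transporter of the family, was far more abundant and did not pass (434 ± 37.0 against 421 ± 36.0 CPM, edgeR adjusted p = 0.657). Of 8 other tested genes of fatty acid uptake and activation, 2 were higher in aged mice and 1 lower, against 22.4% and 23.0% of all genes tested, and 5 did not pass. Cd36, a scavenger receptor for lipids, was at 0.752 to 43.6 CPM in aged and 0.195 to 1.12 CPM in young mice (log2 fold change 4.001, SE 1.01, edgeR adjusted p = 0.00531), and without aged replicate 1 the log2 fold change was 2.51 (edgeR adjusted p = 0.00754). Cd36 was not called by limma-voom over all mice (2.61, adjusted p = 0.0740). Fabp5, a fatty acid binding protein gene, rose 2.21-fold (16.1 ± 3.97 against 7.47 ± 2.02 CPM, edgeR adjusted p = 0.000393). Acsl1, an acyl-CoA synthetase gene, fell by 0.35 on the log2 scale (286 ± 26.5 against 365 ± 16.98 CPM, edgeR adjusted p = 0.000968).

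**Figure D5:**
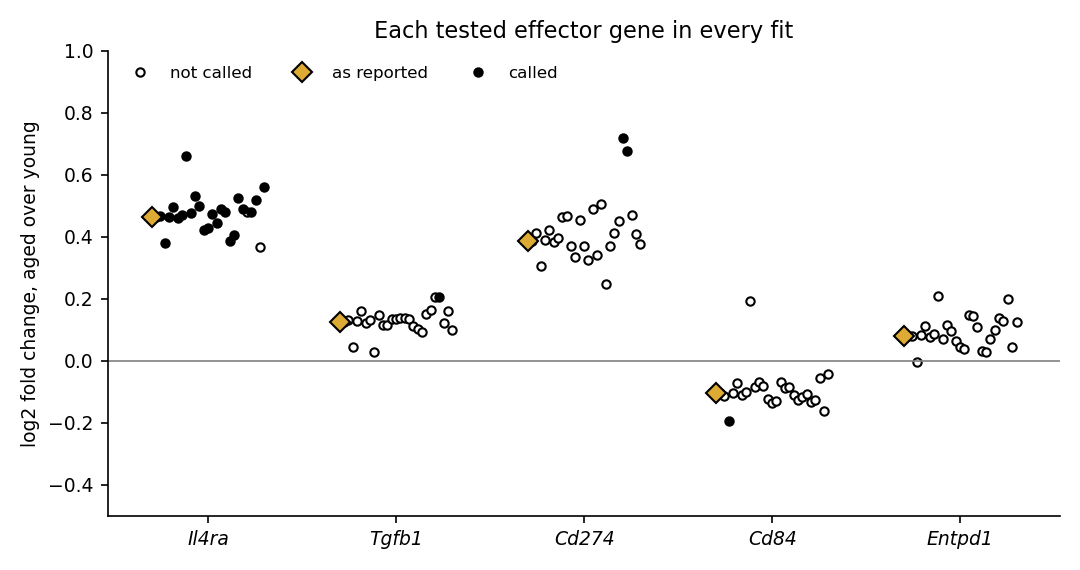
Log2 fold change, aged over young, of the 5 tested members in the fit reported (diamond) and in 26 with another tool, scaling, filter or set of mice (filled where called). Il4ra is called in all but 2 of the fits and lies between 0.37 and 0.66.

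The members were also compared in how they varied between mice of the same age, as Pearson's r of log2 CPM over 12 mice after the mean of each age was subtracted. These are descriptions without a test, since the values share libraries and their scaling. Cd84 and Entpd1 varied most alike (r = 0.84, Spearman's rho 0.84, and r = 0.86 without the 2 mice farthest from the median of the first gene, Cd84). Next by r over 12 mice came Il4ra and Entpd1 (r = 0.58, rho 0.49, and 0.41) and Il4ra and Cd84 (r = 0.51, rho 0.47, and 0.38). Il4ra and Tgfb1 had a lower r of 0.43 but were no lower in the other 2 measures (rho 0.49, and 0.50). Cd274 and Il4ra had r = 0.24 (rho 0.09, and -0.16). Of all genes tested, those most like each member were Cd47 for Il4ra (r = 0.97), Ndufa2 for Tgfb1 (0.97), Fdft1 for Cd274 (0.94), Dennd3 for Cd84 (0.97) and Sgk1 for Entpd1 (0.97). The next were Ppp1r3d (0.96), Rps19 (0.97), H2-M3 (0.93), Smap2 (0.94) and Gpcpd1 (0.97), in the same order.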

How the data were processed

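The authors sequenced stranded TruSeq libraries in pairs on a NovaSeq instrument and deposited whole-number counts of fragments per gene, made with featureCounts v2.0.0 over the exons of a UCSC annotation of mm10. Per the file header, both ends had to align, to 1 chromosome, counting was reverse-stranded and the mapping quality minimum was 60. The aligner is not given in the sources used here. No normalization had been applied, gene length in bases is the authors', and no column was left out. Pairs of libraries of the same age differed by more than counting noise (at least 1.68 times the chi-square expected per gene), so none was counted as a duplicate.

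Ages were compared in R 4.3.3 with edgeR 4.0.16 (filterByExpr, TMM factors, quasi-likelihood test) over all 12 mice, with Benjamini-Hochberg adjustment over the 9742 genes tested and a threshold of 0.05. The study's own tool, DESeq2 (1.42.0), limma-voom (3.58.1), other scalings and filters, a correction for gene length, thinning, leaving out each mouse and a replicate block were alternatives. Standard errors were taken from the fold change and the F statistic. Log2 CPM used a prior count of 2. Intervals are at 95%, and those of counts cover counting error only. The scripts were tested on simulated data. Marker lists were compared by their summed CPM with exact two-sided permutation tests over mice. Promoter windows came from RefSeq.

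The members, the pathway and marker lists and the rule for named genes were chosen with earlier results of these data known. All members reported were named, and from each pathway list the tested gene with the largest called rise, the largest called fall and the smallest p-value, for members that averaged 5 CPM or more the 2 tested genes most correlated with each, and from each marker list the most abundant gene and those at 0. Other genes were named after their values were seen. Of the 10 genes that the choice of members named, 2 are not reported here, and some genes of the sort and of the mitochondrial genome were not analysed here.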

Additional observations from a re-analysis of the deposited data

Results flagged for a closer look

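In 36 groups of 6 mice examined (members above 3 counts and marker lists, by age), 4 held 1 mouse whose gap to the next exceeded 0.625 of the group's range, and chance marks about 1 group in 20. Slc27a2 stood at 1.29 CPM in aged replicate 5, where the next aged mouse had 0.466 CPM. The other 3 were sums of marker genes in aged replicate 1: 998 CPM for resident macrophages (next 304), 37.9 CPM for T and NK cells (next 15.03) and 105 CPM for stromal and endothelial cells (next 50.4). Without aged replicate 1 the log2 fold change of Il4ra was 0.53, and the part of these cells in the differences between the ages, that of Il4ra included, was not tested.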

How the results depend on the processing

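Il4ra was called higher in aged mice in all 12 fits that left out 1 mouse and in 12 of 14 others, and was not called with the replicate block (0.48; edgeR, adjusted p = 0.0767) or with the aged mice of file numbers before the gap (0.37; edgeR, adjusted p = 0.0960). Without each mouse in turn, 1 member was called higher and 0 lower in every fit, of 3804 to 4717 genes called. The number of members higher was 2 without a filter on low counts (Nos2 added), 3 in the 8 mice with shared replicate numbers and no block (Tgfb1 at 0.20 and Cd274 at 0.68 added) and 0 with the aged mice before the gap. The number lower was 1 with library totals alone (Cd84, -0.19). Signs reversed for Entpd1 with library totals alone (-0.0044) and for Cd84 with a correction for gene length (0.19). Of the called pathway genes, Sat1 (-0.057), Pts (-0.019), Jak1 (0.024), Smad2 (0.10) and Skil (0.18) reversed with the length correction. The length correction also ended the calls of Asl, Jak2, Tyk2, Smad3, Smurf1, Cd47, Vegfa, Ly9, Ada, P2ry6, S100a8 and S100a9, and limma-voom those of Mrc1, Cd36, Cd244, Ly9, Vegfa and Slc29a1. Oat, Il13ra1, Jak3, Ski, Smurf2, Thbs1, Tgfbi, Cd80, Lgals9, Ptgs2, Hmox1, Mif, Fabp5, Acsl1, Nt5e, Entpd3, Adora3, Adk and P2rx4 were called in every fit that gave them a value. The causes were not tested, beyond the fewer mice in those subsets.

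The replicate numbers 1, 2, 5 and 6 occur in both ages but name different mice, and deviations of same-numbered mice had correlations of -0.25 to -0.07, so the numbers were not taken to pair them. With the replicate block on those 8 mice, 3446 genes were called, against 4394 without it, and among the members the calls of Il4ra and Tgfb1 (0.20; edgeR, adjusted p = 0.0907) were lost. Cd274 was called in these mice with the block (0.72; edgeR, adjusted p = 0.0470) and without it, and Cd84 and Entpd1 in neither fit.

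Differences of marker lists between the ages, aged minus young, by exact permutation tests over mice, kept their sign throughout. As a mean log2 CPM, neutrophil markers (0.13, adjusted p = 0.0571) and proliferation genes (-0.44, adjusted p = 0.103) were past the threshold no longer. Without 1 mouse the summed CPM differed by 12299 to 17374 for neutrophil markers, 108 to 297 for resident macrophages, 2.93 to 6.04 for erythroid cells and -497 to -354 for proliferation, with adjusted p up to 0.0655, 0.105, 0.111 and 0.0655 in these exact tests. The call was lost for neutrophil markers without aged replicate 5 or 7 or young replicate 5 or 6, for proliferation without aged replicate 4, 5 or 6 or young replicate 5 or 6, and for resident macrophages and erythroid cells without any 1 young mouse. Depth limits Nos2, Il10 and Slc27a2 most, then Cd274.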

Other observations

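Of 17 other genes associated with MDSCs, none of them a member, 6 were called higher in aged mice, 2 lower and 9 did not pass, against 22.4% and 23.0% of all genes tested. The alarmin genes S100a8 and S100a9 rose 1.70-fold and 1.56-fold (35816 ± 4707 against 21062 ± 6712 CPM, and 21459 ± 2060 against 13744 ± 4624 CPM; n = 6 mice per age, edgeR adjusted p = 0.00563 and 0.0140), and neither was called with a correction for gene length. Wfdc17, a gene of a small secreted protein, rose 14.5-fold (93.7 ± 55.3 against 6.60 ± 3.18 CPM; log2 fold change 3.86, SE 0.42, edgeR adjusted p = 1.53e-05). Ifitm1 and Ifitm2, interferon-induced membrane proteins, rose 5.23-fold and 2.49-fold (edgeR, adjusted p = 6.71e-05 and 0.000194), and Cd14, the lipopolysaccharide co-receptor, rose 2.16-fold (13.7 ± 1.24 against 6.26 ± 2.02 CPM, edgeR adjusted p = 0.000249). Osm, the cytokine oncostatin M, fell from 223 ± 79.4 to 110 ± 18.7 CPM (log2 fold change -1.03, SE 0.20, edgeR adjusted p = 0.00114). Cebpb, a transcription factor of suppressor cells, fell by 0.43 on the log2 scale (75.2 ± 13.3 against 101 ± 17.1 CPM, edgeR adjusted p = 0.0123).

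Summed markers of further cells, compared by exact two-sided permutation tests over mice, were higher in aged mice for promyelocytes (33.3 to 47.7 against 19.7 to 31.9 CPM), erythroid cells (1.497 to 17.1 against 0.391 to 1.63 CPM) and stromal and endothelial cells (19.2 to 105 against 10.5 to 20.6 CPM), and lower for proliferation genes (411 to 901 against 730 to 1385 CPM), each at an adjusted p of 0.0238. None of the 7 erythroid markers had enough counts for a test of its own, so those sums rest on few counts. The erythroid call was lost without any 1 young mouse. The proliferation call was lost as a mean log2 CPM (exact test, adjusted p = 0.103) and without aged replicate 4, 5 or 6 or young replicate 5 or 6. Of the 10 proliferation genes, Mki67, Top2a and Bub1 were called lower, against 23.0% of all genes tested, and 7 did not pass. The median log2 fold change of the 10 was -0.087, and Mki67 went from 399 ± 188 to 99.0 ± 39.2 CPM (edgeR adjusted p = 0.000134). The sort and monocyte markers, with Lyz2 the most abundant, summed to 12268 to 17535 CPM in aged and 14806 to 19487 CPM in young mice (exact test, adjusted p = 0.243). Ly6c2, a gene of the sorted antigen, rose 1.45-fold, Cd68 rose 1.77-fold and Itgam, which encodes CD11b, fell by 0.22 on the log2 scale (edgeR, adjusted p = 0.00265, 0.000342 and 0.0285). Dendritic cell markers (adjusted p = 0.193), B and plasma cell markers (0.342), T and NK cell markers (0.173) and those of eosinophils, basophils and mast cells (0.173) did not pass these exact tests. Within the dendritic cell list, Clec9a fell from 4.51 ± 1.46 to 0.830 ± 0.325 CPM with no overlap of the ages (log2 fold change -2.45, SE 0.29, edgeR adjusted p = 2.89e-05), and Itgax, its most abundant gene, did not pass. The most abundant genes of the other lists were Ms4a3 (promyelocytes), Vcam1 (resident macrophages), Igj (B and plasma cells), Cd3d (T and NK cells), Kit (eosinophils, basophils and mast cells), Slc4a1 (erythroid cells), Cxcl12 (stromal and endothelial cells) and Top2a (proliferation). Cd8a and Hba-a1 were at 0 counts in all mice.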
